A study of Mus musculus with 12 samples.

Results

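Genes of sterol synthesis, fatty acid synthesis and cholesterol efflux were followed in mouse bone marrow-derived macrophages (BMDMs) exposed to neuroblastoma tumor-conditioned media (TCM) and to the Syk inhibitor R788. The set was a fixed list of 36 genes: 17 enzymes of cholesterol synthesis, 4 sterol regulators, 10 genes of fatty acid synthesis and 5 genes of the liver X receptor (LXR) and efflux group. All 36 were found in the table of 54232 genes, and all 36 were kept among the 16281 genes that reached 10 counts in 2 or more libraries. BMDMs of wild-type C57BL/6 mice were left unstimulated (NS) or received TCM of NB9464, a MYCN-amplified murine neuroblastoma line, or TCM of NBT3L, a line without MYCN amplification. Each of these media was given without R788 or with 500 nM R788 for 24 h, which made 6 groups of 2 libraries each (12 libraries, SJ1 to SJ12 in the labels). R788 (fostamatinib) is a prodrug whose active form inhibits Syk, a kinase downstream of Fc and integrin receptors. No group carried a deletion of Syk, so an effect of R788 on other kinases cannot be told apart from an effect on Syk.

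The labels do not say whether the 2 libraries of a group came from separate mice, so p-values measure the spread between these libraries, which may be technical. NB9464 TCM was described as DMEM without serum, whereas BMDMs were grown in RPMI with serum. The medium of the cells without TCM during the final incubation and the vehicle of R788 were not given in the sources used here, so base medium, serum and tumor products cannot be told apart within a TCM effect. Library totals ran from 44977847 to 56449685 counts. One R788 library, SJ8, stood apart with 16149 genes detected against 17275 to 18343 in the other libraries. The macrophage markers had the highest summed level of the marker lists in every library (72400 to 86900 TPM, a unit per exon length that sums to the same total in each library). Lyz2 carried most of that sum (group means 65160 to 75910 TPM). Of the 8 macrophage markers, 5 were called higher and 2 lower with each TCM (62.5% and 25.0%). All-gene shares there were 17.2% and 16.9% for NB9464, and 18.0% and 17.3% for NBT3L. With R788 alone 3 were higher and 3 lower (37.5% each, against 11.6% and 15.0%). The neuroblastoma markers summed to 0.0893 to 0.712 TPM without TCM and 1.16 to 2.27 TPM with TCM, with 3 and 4 of the 5 tested called higher with NB9464 and NBT3L TCM, while Th and Chga had 0 counts in every library. The granulocyte, dendritic and lymphoid markers summed to 67.9 to 132 TPM without TCM and 375 to 564 TPM with TCM. S100a8, an alarmin gene of neutrophils and activated myeloid cells, carried that sum (group means 97.7 to 558 TPM), whereas Mpo and Elane were called lower with both TCMs. The part of these markers in the results was not tested. In bulk RNA, fewer cells of a type and less RNA per cell cannot be told apart.

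Cells make cholesterol from acetyl-CoA through the mevalonate pathway, and they switch its enzymes on through SREBP-2 (encoded by Srebf2) when sterols in the membrane run low. Insig1 holds SREBP back in the endoplasmic reticulum and is itself an SREBP target. SREBP-1c (from Srebf1) favors genes of fatty acid synthesis and desaturation, whereas LXRs (Nr1h3 and Nr1h2) sense oxysterols and switch on the exporters Abca1 and Abcg1, Mylip and Srebf1. In macrophages this balance of making, desaturating and exporting lipid is known for its link to inflammatory and foam cell states.

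Promoters of the SREBP-regulated genes are known for binding sites of NF-Y and Sp1 next to the sterol element. The RefSeq table (GRCm38.p6) held start-site windows for 28 of the 36 members, and Fdps, Fdft1, Sqle, Stard4, Scd1, Scd2, Fads1 and Abcg1 were not among them. Each window covered 250 bases before and 50 bases after the start, and a gene counted as holding a motif when any of its windows did, on either strand. The NF-Y box CCAAT was present in 14 of 14 sterol enzymes, 3 of 3 sterol regulators, 4 of 7 fatty acid genes and 1 of 4 LXR genes, against 41.0% of 26997 other genes. GGGCGG, the core Sp1 box, was present in 13 of 14, 3 of 3, 4 of 7 and 2 of 4, against 38.2%. The letters TCACNCCAC, one form of the sterol element, were found in the Hmgcs1 window alone among the 28 (1.43% of other genes). These letter matches are descriptions of sequence and not of binding.

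Upstream bases of 4 members are shown, Hmgcs1 because its window held the sterol element, and Hsd17b7, Fasn and Abca1 as a sterol enzyme, a fatty acid gene and an exporter, chosen after their values were seen. Only bases before both the RefSeq start and the GENCODE M21 gene start are printed, 5′ to 3′ on the strand of the gene. Capitals mark CCAAT (or ATTGG, its reverse complement) and TCACCCCAC. The stretch CCAATTGG of Fasn holds CCAAT and ATTGG and was counted as 2 overlapping boxes. The Hmgcs1 bases (chr13:119690101-119690350, plus strand) held 3 NF-Y boxes, the Hsd17b7 bases (chr1:169969242-169969455, minus strand) held 2, the Fasn bases (chr11:120824548-120824797, minus strand) held 3 and the Abca1 bases (chr4:53159896-53160145, minus strand) held 0.
Hmgcs1: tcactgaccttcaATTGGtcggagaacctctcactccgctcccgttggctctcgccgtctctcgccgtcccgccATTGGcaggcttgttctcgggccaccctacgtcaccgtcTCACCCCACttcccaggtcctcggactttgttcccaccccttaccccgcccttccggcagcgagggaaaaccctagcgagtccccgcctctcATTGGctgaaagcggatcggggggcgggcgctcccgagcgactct
Hsd17b7: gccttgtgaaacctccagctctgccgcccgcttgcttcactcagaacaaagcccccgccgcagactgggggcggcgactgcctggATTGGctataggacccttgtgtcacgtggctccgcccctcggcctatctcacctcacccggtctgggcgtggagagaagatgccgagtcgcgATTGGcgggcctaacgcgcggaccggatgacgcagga
Fasn: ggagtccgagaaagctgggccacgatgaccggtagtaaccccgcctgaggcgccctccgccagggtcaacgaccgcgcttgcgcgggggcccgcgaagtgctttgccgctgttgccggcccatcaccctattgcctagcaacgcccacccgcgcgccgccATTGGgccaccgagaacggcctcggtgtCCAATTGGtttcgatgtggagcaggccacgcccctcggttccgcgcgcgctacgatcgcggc
Abca1: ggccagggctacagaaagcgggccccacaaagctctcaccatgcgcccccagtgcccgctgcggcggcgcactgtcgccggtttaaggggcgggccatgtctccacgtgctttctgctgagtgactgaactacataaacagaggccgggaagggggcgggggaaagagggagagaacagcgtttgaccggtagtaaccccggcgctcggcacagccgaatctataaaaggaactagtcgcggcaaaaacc

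Levels were compared between genes as TPM, which divide counts by merged exon length and scale them to the same total in each library. In NS macrophages the highest mean levels were those of Acly (142 TPM), Fads1 (114 TPM), Srebf2 (109 TPM), Insig1 (107 TPM) and Scd2 (105 TPM). Fdps had the lowest level of the 36 in NS (2.73 TPM). Its gene overlaps another annotated gene on the same strand, so its count is uncertain. All other values are normalized counts, which compare 1 gene between libraries, and differences are log2 fold changes with their standard errors (SE). A gene was called when its DESeq2 adjusted p was under 0.05, and shares of all genes are shares of the 16281.

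In each of the first 3 comparisons more members were lower than higher. With NB9464 TCM, 6 members were called higher and 11 lower against NS, where 17.2% of all genes were called higher and 16.9% lower. With NBT3L TCM, 5 members were called higher and 20 lower (18.0% and 17.3% of all genes). With R788 in the absence of TCM, 2 were called higher and 22 lower (11.6% and 15.0% of all genes), so 61.1% of the members were lower. The share of members called lower was above that of all genes in these 3 comparisons, and the shares called higher were 16.7%, 13.9% and 5.56%, the first of them close to its background. The median log2 fold change of the 36 was -0.20, -0.29 and -0.45 in that order, while the median of all genes tested was 0.02, 0.00 and 0.00. The 3 comparisons share the NS libraries, so these counts are not independent of each other.

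R788 was also compared within each TCM. In NB9464 TCM, R788 was accompanied by 1 member called higher and 19 called lower, against 5.79% and 8.70% of all genes. In NBT3L TCM, 1 member was called higher and 4 lower (5.33% and 7.24% of all genes). The member shares in NBT3L TCM were thus close to the background. Of the 22 members lower with R788 in the absence of TCM, 16 (72.7%) were also lower with R788 in NB9464 TCM. There they made up 84.2% of the 19. The same overlap over all genes was not counted, so these shares cannot be called particular to the members. Cyp51, Msmo1, Hsd17b7 and Fasn were called lower with R788 in all 3 media. The number lower in NB9464 TCM fell to 11 when SJ3 or SJ9 was left out, and the number lower in NBT3L TCM ran from 3 to 6.

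**Figure D1:**
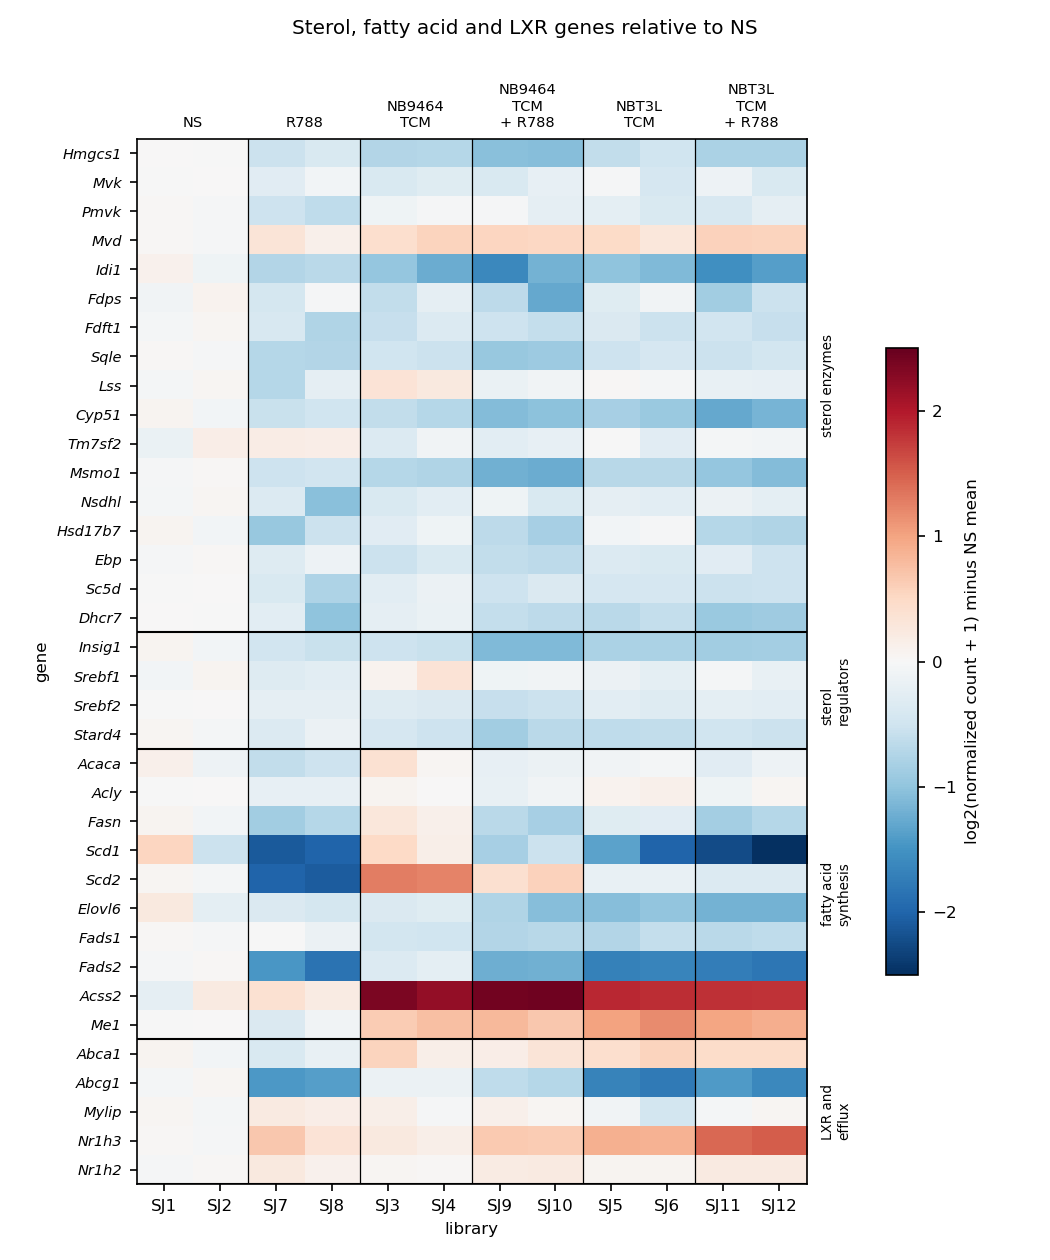
Heat map of the 36 genes (rows, grouped by role) in the 12 libraries (columns, grouped by treatment), colored by log2(normalized count + 1) minus the NS mean of the gene. Blue rows in the sterol enzyme block lie in all 5 treated groups, Acss2 and Me1 are red in every TCM group, and Scd2 is red with NB9464 TCM and blue with R788 alone.

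More of the sterol enzymes were called lower than higher with either TCM and with R788. Of the 17 enzymes, 7 fell and 1 rose with NB9464 TCM (41.2% lower against 16.9% of all genes, and 5.88% higher against 17.2%), and 9 were not called. With NBT3L TCM 10 fell and 1 rose (58.8% lower against 17.3%, and 5.88% higher against 18.0%). With R788 in the absence of TCM 12 fell (70.6% against 15.0%). Within NB9464 TCM 6 were lower with R788 than without it (35.3% against 8.70%), namely Hmgcs1, Sqle, Cyp51, Msmo1, Lss and Hsd17b7, and within NBT3L TCM 3 were (17.6% against 7.24%). The median log2 fold change of the 17 was -0.34 with NB9464 TCM, -0.36 with NBT3L TCM and -0.53 with R788. Between the 2 TCMs without R788, DESeq2 and edgeR each called 0 enzymes (3 at an unadjusted p under 0.05), with differences from -0.22 to 0.45 on the log2 scale.

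Hmgcs1, the synthase that makes HMG-CoA at the entry of the pathway, had 4262 and 4237 normalized counts in NS. It had 2557 and 2609 with NB9464 TCM and 2762 and 3002 with NBT3L TCM. R788 gave 2929 and 3242 without TCM, 2048 and 2038 in NB9464 TCM and 2456 and 2470 in NBT3L TCM. Each treated pair lay below both NS libraries, and the change was -0.72 ± 0.085 (SE) with NB9464 TCM (adjusted p = 3.88e-16), -0.56 ± 0.085 with NBT3L TCM and -0.46 ± 0.084 with R788. In NB9464 TCM the R788 change was -0.34 ± 0.087 (adjusted p = 0.00113), and in NBT3L TCM it was -0.23 ± 0.086 (adjusted p = 0.0538, not called). Hmgcs1 lies outside the rule for named genes and was added after its values were seen.

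Idi1, which isomerizes the 5-carbon building block of the isoprenoids, showed the deepest fall of the 17 enzymes with both TCMs. Its counts were 1490 and 1287 in NS, 708 and 587 with NB9464 TCM, 689 and 643 with NBT3L TCM, and 833 and 869 with R788. Idi1 was 2.14-fold lower with NB9464 TCM (log2 -1.10 ± 0.175, adjusted p = 2.84e-09) and 2.08-fold lower with NBT3L TCM. R788 in either TCM gave values of 454 to 609, and neither difference was called (-0.29 ± 0.179 and -0.40 ± 0.180). Idi1 and Hmgcs1 each overlap an annotated gene on the opposite strand, and the use of strand in counting was not given, so reads of the partners cannot be told apart.

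Sqle, the squalene epoxidase and a rate-limiting step of the pathway, had 6201 and 5902 counts in NS and 3683 and 3633 with R788. With NB9464 TCM it had 4299 and 4146, which dropped to 3152 and 3244 when R788 was added. With NBT3L TCM it had 4216 and 4492, and with R788 in addition 4183 and 4403, so these last pairs overlapped. R788 alone changed Sqle by -0.73 ± 0.072 (adjusted p = 3.67e-22). With TCM present the R788 change was -0.40 ± 0.073 for NB9464 (adjusted p = 1.13e-06) and -0.02 ± 0.073 for NBT3L. The difference of the R788 change in NBT3L TCM from that without TCM was 0.71 ± 0.103 (adjusted p = 4.42e-10).

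Cyp51 and Msmo1, which remove the methyl groups of lanosterol, fell in every comparison against NS and again with R788 in both TCMs. Cyp51 had 4153 and 3775 counts in NS, 2577 and 2420 with NB9464 TCM, 2222 and 2093 with NBT3L TCM and 2685 and 2794 with R788. R788 lowered Cyp51 to 1861 and 1937 in NB9464 TCM (-0.40 ± 0.095, adjusted p = 0.000428) and to 1622 and 1772 in NBT3L TCM (-0.35 ± 0.096, adjusted p = 0.0037). The last call was lost without SJ5 (-0.30, adjusted p = 0.113) or SJ11 (-0.28, adjusted p = 0.141). Cyp51 overlaps Akap9 on the opposite strand.

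Msmo1 had 6138 and 6330 counts in NS, 3801 and 3718 with NB9464 TCM, 3833 and 3870 with NBT3L TCM and 4360 and 4449 with R788. With R788 it had 2695 and 2627 in NB9464 TCM and 3208 and 2942 in NBT3L TCM. The 6 groups did not overlap, and the 2 TCM groups without R788 lay closest. R788 changed Msmo1 by -0.50 ± 0.072 in cells without TCM, by -0.50 ± 0.074 with NB9464 TCM and by -0.33 ± 0.074 with NBT3L TCM (adjusted p = 0.000197), the last of which was not called without SJ12 (-0.26, adjusted p = 0.0554). Hsd17b7, a 3-ketosteroid reductase of the same demethylation steps, had a different pattern and was called in the R788 comparisons alone. Its counts were 1445 and 1318 in NS, 1134 and 1288 with NB9464 TCM and 1311 and 1345 with NBT3L TCM. With R788 they were 712 and 945 without TCM, 873 and 772 in NB9464 TCM and 842 and 823 in NBT3L TCM. R788 changed Hsd17b7 by -0.74 ± 0.152 (adjusted p = 1.3e-05), -0.56 ± 0.154 (adjusted p = 0.00287) and -0.67 ± 0.154 (adjusted p = 0.000204) in that order. The call in NB9464 TCM was lost without SJ4 (-0.46, adjusted p = 0.0921) or SJ10 (-0.47, adjusted p = 0.0927).

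**Figure D2:**
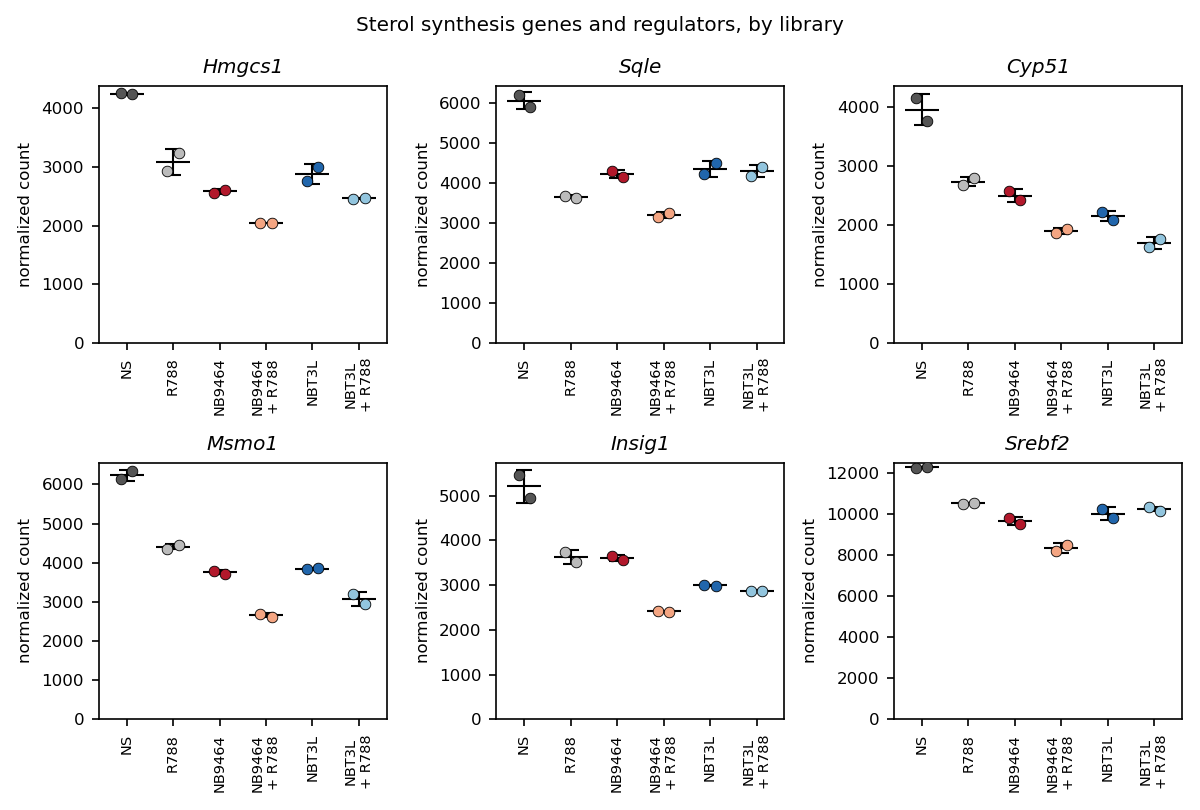
Normalized counts (vertical axis, from 0) of 4 sterol enzymes and 2 regulators in each library, with points for libraries, long bars for group means and error bars for the SD (n = 2). NS lies highest in every panel, and R788 adds a fall within NB9464 TCM for all 6 genes, while the NBT3L pairs with and without R788 lie close for Sqle, Insig1 and Srebf2.

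The other enzymes were less uniform. Mvd, the mevalonate diphosphate decarboxylase, was the sole sterol enzyme that rose with TCM, from 1736 and 1652 in NS to 2253 and 2478 with NB9464 TCM (0.48 ± 0.107, adjusted p = 3.7e-05) and 2359 and 2071 with NBT3L TCM (0.39 ± 0.107, adjusted p = 0.00134). The NBT3L call was lost without SJ5 (0.29, adjusted p = 0.0864), and as TPM the group means of Mvd were 58.1 in NS and 57.8 with NBT3L TCM. Over all genes averaging 50 or more counts, TPM moved the median log2 ratio to NS by -0.25 for NB9464 TCM and -0.39 for NBT3L TCM against the normalized counts, so TPM sets TCM values lower as a whole. Fdft1, which joins farnesyl units into squalene, and Ebp, a sterol isomerase, fell with both TCMs, and Sc5d, Dhcr7 and Pmvk fell with NBT3L TCM but were not called with NB9464 TCM. The Pmvk call was lost under 10 of 18 alternatives (highest adjusted p = 0.281, without SJ6). Fdft1 was not called without SJ2 in either TCM (-0.40 and -0.39), without SJ3 in NB9464 TCM (-0.34) or without SJ6 in NBT3L TCM (-0.36), and Ebp was not called in NBT3L TCM without SJ2 or SJ6 (-0.33 and -0.34). Fdft1 overlaps Ctsb, a cathepsin gene, on the opposite strand. R788 lowered Pmvk, Fdft1, Lss, Nsdhl, Sc5d and Dhcr7 in the absence of TCM. Nsdhl had 1166 and 722 counts and Dhcr7 1577 and 942 with R788, the lower value being that of SJ8 in both. Without SJ8 neither was called (Nsdhl -0.35, adjusted p = 0.0669, and Dhcr7 -0.27, adjusted p = 0.0998), and Lss was not called without SJ7 (-0.23, adjusted p = 0.151) or SJ2 (-0.39, adjusted p = 0.0955). Mvk, Fdps and Tm7sf2 were called in none of the comparisons of groups.

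Of the 4 sterol regulators, Insig1, Srebf2 and Stard4 fell with both TCMs, and Insig1, Srebf2 and Srebf1 fell with R788 (75.0% of the 4 in each comparison, against 16.9%, 17.3% and 15.0% of all genes). Insig1 had 5469 and 4935 counts in NS, 3650 and 3550 with NB9464 TCM, 3008 and 2982 with NBT3L TCM and 3742 and 3522 with R788. All treated libraries lay below NS, by -0.53 ± 0.079 for NB9464 TCM (adjusted p = 2.05e-10), -0.80 ± 0.080 for NBT3L TCM (adjusted p = 4.51e-22) and -0.52 ± 0.079 for R788 (adjusted p = 1.01e-09). In NB9464 TCM R788 lowered Insig1 further to 2421 and 2410 (-0.58 ± 0.081). In NBT3L TCM it gave 2862 and 2880 (-0.06 ± 0.081, adjusted p = 0.726), and this R788 change differed from that without TCM by 0.46 ± 0.113 (adjusted p = 0.00103).

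Srebf2 had 12239 and 12278 counts in NS, 9804 and 9527 with NB9464 TCM, 10240 and 9777 with NBT3L TCM and 10483 and 10524 with R788. The falls were small, from -0.22 to -0.34 on the log2 scale, and each was called. With R788 in NB9464 TCM it had 8181 and 8505 (-0.21 ± 0.054, adjusted p = 0.00107, not called without SJ3, adjusted p = 0.0535, or SJ9, adjusted p = 0.0793), and with R788 in NBT3L TCM 10311 and 10150, which overlapped the libraries without R788. Stard4, a carrier that moves cholesterol between membranes, had 3751 and 3509 counts in NS, 2720 and 2546 with NB9464 TCM and 2327 and 2380 with NBT3L TCM. Its R788 libraries held 2858 and 3293 (-0.24 ± 0.100, adjusted p = 0.0561). R788 in NB9464 TCM gave 1976 and 2270 (-0.31 ± 0.102, adjusted p = 0.016), which was not called without SJ3 (-0.26, adjusted p = 0.197) or SJ9 (-0.21, adjusted p = 0.318).

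Srebf1 was the regulator with a direction of its own. It had 5914 and 6427 counts in NS, 6530 and 7820 with NB9464 TCM and 5596 and 5199 with NBT3L TCM. The rise with NB9464 TCM was 0.22 ± 0.089 (adjusted p = 0.0439). It was lost under 10 of 18 alternatives, down to 0.08 without SJ4 (adjusted p = 0.616), and as TPM the mean was 69.7 in NS and 67.9 with NB9464 TCM. Srebf1 was higher with NB9464 TCM than with NBT3L TCM by 0.41 ± 0.090 (adjusted p = 0.000107; without SJ4 0.27, adjusted p = 0.0511). R788 gave 4902 and 5158 without TCM (-0.29 ± 0.090, adjusted p = 0.00512; without SJ2 -0.23, adjusted p = 0.118). In NB9464 TCM R788 gave 5754 and 5789 (-0.31 ± 0.089, adjusted p = 0.00428), a call lost without SJ4 (-0.18, adjusted p = 0.23) or SJ9 (-0.31, adjusted p = 0.0574). The Srebf1 count takes in both SREBP-1 isoforms, and the gene overlaps Rai1 on the opposite strand.

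Of the 10 fatty acid synthesis genes, 3 rose and 1 fell with NB9464 TCM (30.0% and 10%, against 17.2% and 16.9% of all genes). With NBT3L TCM 2 rose and 6 fell (20.0% and 60.0%, against 18.0% and 17.3%), so the share that rose was close to the background. R788 lowered 6 in the absence of TCM (60.0% against 15.0%), 8 when added to NB9464 TCM (80.0% against 8.70%) and 1 when added to NBT3L TCM (10% against 7.24%). Between the TCMs 9 of the 36 members were higher and 2 lower with NB9464 TCM than with NBT3L TCM (3.69% and 5.72% of all genes), and 6 of the 9 and 1 of the 2 were fatty acid genes. Without SJ3, SJ4 or SJ6 the 9 became 6, and without SJ6 the 2 became 1.

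Scd2, a stearoyl-CoA desaturase that makes monounsaturated fatty acids, had 9276 and 8616 counts in NS, 21755 and 21105 with NB9464 TCM and 7879 and 7887 with NBT3L TCM. R788 gave 2246 and 2120 without TCM, 11877 and 13316 in NB9464 TCM and 7038 and 7101 in NBT3L TCM. The 6 groups did not overlap. Scd2 was 2.4-fold higher with NB9464 TCM (1.26 ± 0.067, adjusted p = 2.64e-76) and 4.1-fold lower with R788 (-2.04 ± 0.070, adjusted p = 9.75e-183). In NB9464 TCM R788 lowered it 1.7-fold (-0.77 ± 0.067, adjusted p = 5.2e-28), and in NBT3L TCM the difference was -0.16 ± 0.069 (adjusted p = 0.107). The fall with NBT3L TCM was small (-0.18 ± 0.068, adjusted p = 0.0228) and was not called without SJ1 (-0.13, adjusted p = 0.266), SJ5 (-0.18, adjusted p = 0.116) or SJ6 (-0.18, adjusted p = 0.107).

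Scd1, the related desaturase 1, was much less abundant than Scd2, with mean levels of 7.64 and 105 TPM in NS. Its NS libraries were uneven at 780 and 375 counts. It had 761 and 597 with NB9464 TCM, 214 and 134 with NBT3L TCM, 125 and 134 with R788, 305 and 374 with R788 in NB9464 TCM and 113 and 91 with R788 in NBT3L TCM. The fall was -1.73 ± 0.330 with NBT3L TCM (adjusted p = 1.02e-06) and -2.15 ± 0.330 with R788 (adjusted p = 1.27e-09), and the groups did not overlap. In NB9464 TCM R788 lowered it 2-fold (SE 0.324 on the log2 scale, adjusted p = 0.0148), lost without SJ3 (-0.81, adjusted p = 0.221) or SJ9 (-0.86, adjusted p = 0.176). Adipocyte markers moved with the uneven NS pair, since Adipoq had 66 and 9 raw counts and Plin1 47 and 12 in SJ1 and SJ2. The whole list of 8 fibroblast and adipocyte markers summed to 29.6 and 20 TPM in NS and 25.7 and 28.7 TPM with R788. With R788 alone 2 markers were called higher and 1 lower (25.0% and 12.5%, against 11.6% and 15.0% of all genes). The share lower was thus close to the background. The part of this list in the Scd1 values was not tested. Within the list Col1a1 rose with R788 (1.23 ± 0.181), while Fabp4, an adipocyte gene that macrophages also express, fell with R788 from 974 and 718 normalized counts to 395 and 303 (-1.28 ± 0.213). With NBT3L TCM, where Scd1 was also lower, Fabp4 had 585 and 773 counts (not called). Fabp4 rose with NB9464 TCM (0.70 ± 0.209) and fell with R788 in both TCMs (-0.93 ± 0.210 and -1.83 ± 0.222). Adipoq had 61.99 and 8.53 normalized counts in NS, 12.7 and 5.59 with R788 and 26 and 13 with NBT3L TCM, and neither Adipoq nor Plin1 was called.

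Fads2, the delta-6 desaturase of polyunsaturated fatty acids, had 1095 and 1134 counts in NS and 884 and 938 with NB9464 TCM. It had 343 and 354 with NBT3L TCM and 405 and 310 with R788. Fads2 was 3.2-fold lower with NBT3L TCM (-1.68 ± 0.175, adjusted p = 1.51e-20) and 3.12-fold lower with R788 (-1.64 ± 0.172, adjusted p = 6.98e-20), and was not called with NB9464 TCM (-0.29 ± 0.168). R788 lowered it to 480 and 482 in NB9464 TCM (-0.92 ± 0.172, adjusted p = 2.18e-06). In NBT3L TCM R788 gave 334 and 320, close to the 343 and 354 without it (-0.09 ± 0.182). Fads1, the delta-5 desaturase beside it on chromosome 19, fell with both TCMs (-0.48 ± 0.077 and -0.66 ± 0.077) and was not called with R788 alone (-0.08 ± 0.076). In NB9464 TCM Fads1 was called lower with R788 (means 4453 without and 3792 with it), though not under every alternative.

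Fasn, the fatty acid synthase, had 7908 and 7254 counts in NS, 9230 and 8228 with NB9464 TCM and 6102 and 6238 with NBT3L TCM. R788 brought it to 4135 and 4640, 4779 and 4282, and 4175 and 4591 in the 3 media in that order. These 6 libraries lay in 1 range below all 6 libraries without R788. The R788 changes were -0.79 ± 0.089, -0.95 ± 0.089 and -0.49 ± 0.090 (adjusted p = 3.27e-17, 3.59e-24 and 1.1e-06). Its fall with NBT3L TCM (-0.30 ± 0.089, adjusted p = 0.00327) was not called without SJ1 (-0.23, adjusted p = 0.0917). Fasn was added to the named genes after its values were seen. Acaca, the acetyl-CoA carboxylase, and Acly, the citrate lyase, were lower with R788 without TCM (-0.56 and -0.20) and were not called with either TCM alone. The Acly call was lost without SJ2 (-0.18, adjusted p = 0.0908) or with the compared libraries alone (-0.19, adjusted p = 0.0794). Elovl6, an elongase, was lower with NBT3L TCM (-1.05 ± 0.204, adjusted p = 1.8e-06). Acaca, Acly and Elovl6 were also called lower when R788 was added to NB9464 TCM, though not under every alternative. Their means there went from 1770 to 1335, from 12130 to 10790 and from 597.4 to 399.5.

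Acss2 and Me1 rose with both TCMs. Acss2, which makes acetyl-CoA from acetate, had 393 and 541 counts in NS, 2366 and 2122 with NB9464 TCM and 1715 and 1651 with NBT3L TCM. It was 4.8-fold higher with NB9464 TCM (2.27 ± 0.140, adjusted p = 7.15e-57) and 3.6-fold higher with NBT3L TCM (1.85 ± 0.141, adjusted p = 1.06e-37). R788 left it at 601 and 535, 2443 and 2477, and 1648 and 1625 in the 3 media, and DESeq2 called none of these differences (0.28 ± 0.144, 0.13 ± 0.134 and -0.04 ± 0.136). Acss2 overlaps Ggt7 and Gss on the opposite strand. Me1, the cytosolic malic enzyme that supplies NADPH, had 1358 and 1365 counts in NS, 2121 and 2292 with NB9464 TCM and 2732 and 3078 with NBT3L TCM, a rise of 0.70 ± 0.114 and 1.09 ± 0.114 (adjusted p = 9.75e-09 and 1.7e-20). With R788 it had 1059 and 1276, 2385 and 2168, and 2693 and 2570 in the 3 media, and none of the R788 differences was called. Acss2 was higher and Me1 lower with NB9464 TCM than with NBT3L TCM (0.41 ± 0.135 and -0.40 ± 0.113). The Acss2 call was lost without SJ3, SJ5 or SJ6 (0.33, 0.44 and 0.39) and by edgeR (0.43, adjusted p = 0.0573), and the Me1 call was lost without SJ3 or SJ6 (-0.34 and -0.31).

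**Figure D3:**
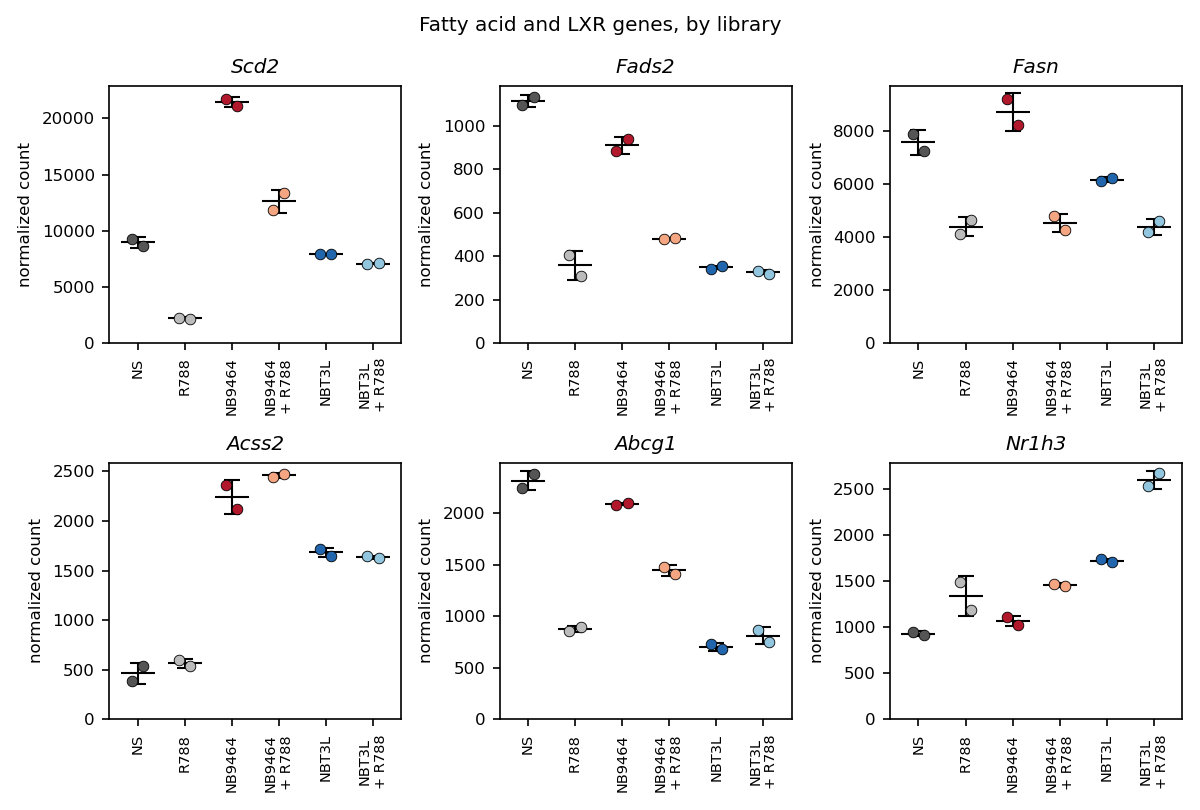
Normalized counts (vertical axis, from 0) of 4 fatty acid genes, the exporter gene Abcg1 and the LXR alpha gene Nr1h3 in each library, with points for libraries, long bars for group means and error bars for the SD (n = 2). Scd2, Fads2 and Abcg1 are low with R788 alone and nearly the same with and without R788 in NBT3L TCM. With R788 in NB9464 TCM, Fads2 and Abcg1 lie between R788 alone and NS, while Scd2 lies above NS and below NB9464 TCM alone. Nr1h3 is higher with R788 in each medium.

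The LXR and efflux genes did not move as a group. Of the 5, 1 rose with NB9464 TCM, 2 rose and 1 fell with NBT3L TCM, and 2 rose and 1 fell with R788. Each single gene is 20.0% of the list, close to the 17.2%, 17.3% and 15.0% of all genes called in those directions, and the 2 that rose are 40%, against 18.0% and 11.6%. The 2 exporters went opposite ways with NBT3L TCM. Abcg1, which passes cholesterol to HDL, had 2251 and 2381 counts in NS, 2082 and 2098 with NB9464 TCM and 731 and 680 with NBT3L TCM. It was 3.28-fold lower with NBT3L TCM (-1.72 ± 0.118, adjusted p = 4.98e-46) and was not called with NB9464 TCM (-0.15 ± 0.113). R788 alone gave 854 and 895 (-1.41 ± 0.115, adjusted p = 4.27e-32). Added to NB9464 TCM it gave 1481 and 1412 (-0.53 ± 0.115, adjusted p = 6.38e-05), and added to NBT3L TCM 873 and 755 (0.21 ± 0.122, adjusted p = 0.293).

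Abca1, which passes cholesterol to lipid-poor apolipoproteins, had 3627 and 3314 counts in NS, 5125 and 3814 with NB9464 TCM and 4668 and 5105 with NBT3L TCM. It rose by 0.49 ± 0.119 with NBT3L TCM (adjusted p = 0.000173) and by 0.36 ± 0.119 with NB9464 TCM (adjusted p = 0.00833). The second call rested on an uneven pair and was lost without SJ3 (0.14, adjusted p = 0.434) or SJ2 (0.30, adjusted p = 0.115). R788 gave 2678 and 3067, 3882 and 4326, and 4736 and 4756 in the 3 media, and none of these differences was called (-0.27 ± 0.120, -0.12 ± 0.119 and -0.04 ± 0.119). Without SJ4 the second was called (-0.32, adjusted p = 0.0405). Mylip, a ubiquitin ligase and LXR target, was called in none of the comparisons of groups, with counts between 1186 and 1902.

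Nr1h3, which encodes LXR alpha, rose with NBT3L TCM and with R788 in each medium. Its counts were 950 and 912 in NS, 1106 and 1025 with NB9464 TCM and 1735 and 1708 with NBT3L TCM. R788 gave 1495 and 1182, 1469 and 1444, and 2527 and 2667 in the 3 media. The R788 rise was 0.52 ± 0.126 (adjusted p = 0.000245), 0.45 ± 0.126 (adjusted p = 0.00322) and 0.59 ± 0.123 (adjusted p = 3.25e-05). The call in NB9464 TCM was lost without SJ4 (0.40, adjusted p = 0.075) or SJ9 (0.44, adjusted p = 0.0588). Nr1h3 was 1.85-fold higher with NBT3L TCM (0.89 ± 0.126, adjusted p = 1.91e-11) and was not called with NB9464 TCM (0.19 ± 0.127). It overlaps another annotated gene on the same strand. Nr1h2, which encodes LXR beta, had 4768 and 5026 counts in NS and 5838 and 5246 with R788 (0.18 ± 0.071, adjusted p = 0.0408), a call lost under 15 of 18 alternatives, among them edgeR (adjusted p = 0.0826), and down to 0.10 without SJ7 (adjusted p = 0.308). In the other groups it had 5026 to 5707 counts.

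The R788 change within each TCM was then tested against the R788 change without TCM. For NB9464 TCM, 6 members were called higher and 0 lower (6.22% and 6.26% of all genes), where higher means a less negative R788 change. For NBT3L TCM, 10 were called higher and 0 lower (5.17% and 4.96% of all genes). Without SJ9 the 6 became 2, and without SJ6 the 10 became 5. The NS and R788 libraries, SJ8 included, enter both tests, so the 2 sets of calls are not independent. The counts of 0 were also 0 by edgeR and at an unadjusted p under 0.05. Whether the R788 change differed between the 2 TCMs was not tested.

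Scd2 and Abcg1 were called in both tests under every alternative without a minimum fold. For Scd2 the R788 change was less negative by 1.27 ± 0.097 in NB9464 TCM (adjusted p = 2.78e-36) and by 1.88 ± 0.098 in NBT3L TCM (adjusted p = 9.76e-79). For Abcg1 it was less negative by 0.87 ± 0.163 (adjusted p = 2.6e-06) and by 1.61 ± 0.168 (adjusted p = 2.04e-19). Fads2 was less negative by 1.55 ± 0.250 in NBT3L TCM (adjusted p = 3.6e-08). In NBT3L TCM without R788, Fads2 and Abcg1 were already near their levels with R788 alone, at 343 to 354 against 310 to 405 for Fads2 and 680 to 731 against 854 to 895 for Abcg1. Scd2 was not, at 7879 to 7887 against 2120 to 2246.

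**Figure D4:**
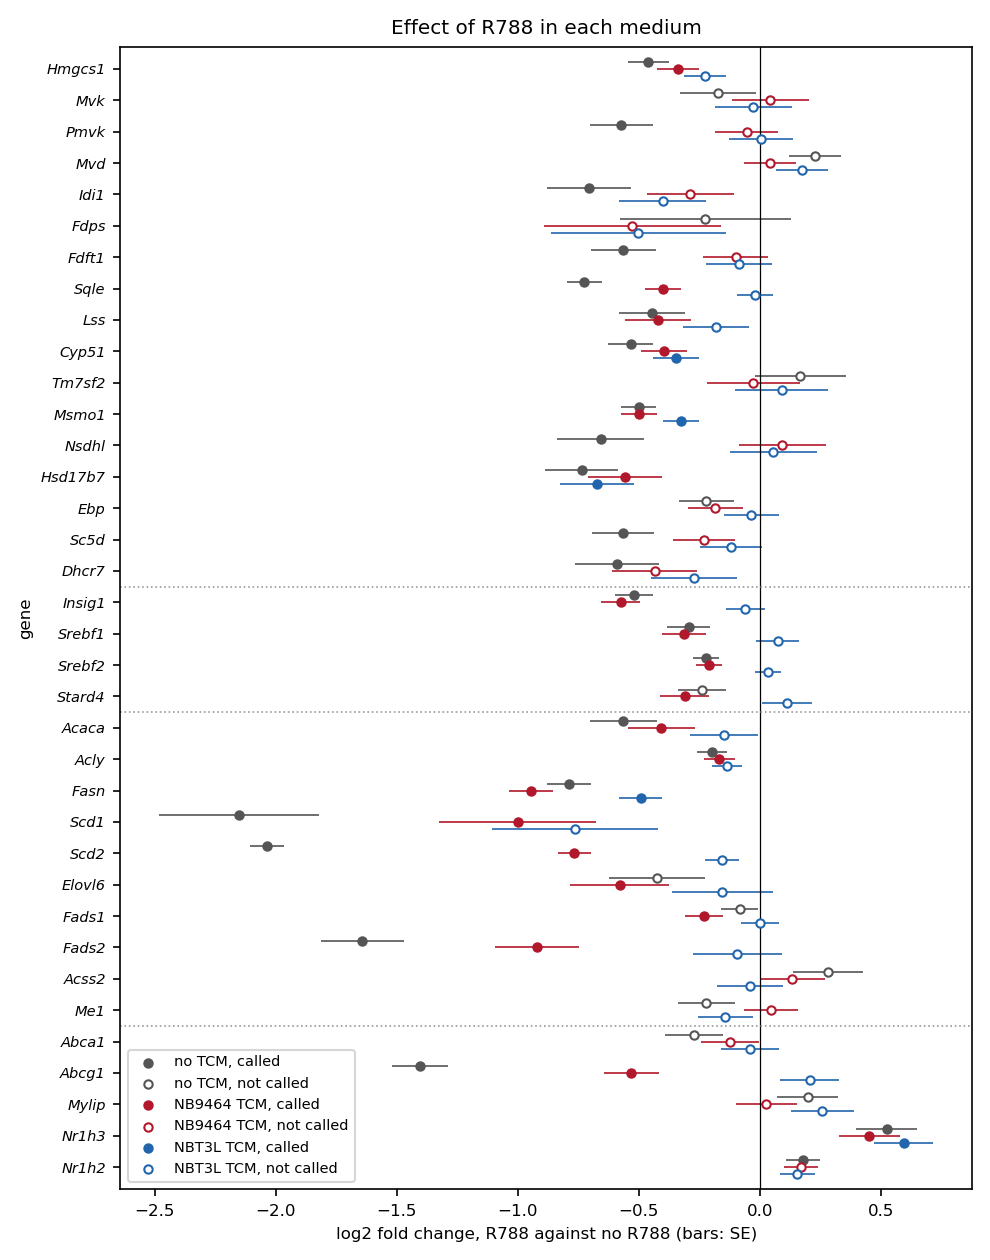
Log2 fold change of R788 against no R788 (horizontal axis, bars are SE) for each of the 36 genes without TCM (gray), in NB9464 TCM (red) and in NBT3L TCM (blue), with filled points for called genes and dotted lines between the 4 roles. Scd1, Scd2, Fads2 and Abcg1 lie farthest left without TCM and nearer to 0 in the TCMs, whereas Fasn, Msmo1, Cyp51 and Hsd17b7 are called lower in all 3 media.

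Wider lists gave the other genes of these pathways. Of 8 tested genes of sterol synthesis outside the members, 3 were lower with NB9464 TCM, 4 with NBT3L TCM and 5 with R788 (37.5%, 50% and 62.5%, against 16.9%, 17.3% and 15.0% of all genes). DESeq2 and edgeR called 0 of the 8 higher in these comparisons, and at an unadjusted p under 0.05 the numbers higher were 0, 1 and 0. Lbr, which carries a sterol reductase domain besides its role in the nuclear envelope, had 4328 and 3562 counts in NS and 1297 to 1565 with the 2 TCMs (-1.36 ± 0.109 and -1.58 ± 0.110) but 3401 and 3365 with R788 (-0.22 ± 0.107, not called). Acat2, a cytosolic thiolase, was lower with NBT3L TCM and R788 (-0.57 ± 0.117 and -0.70 ± 0.116), and Tmem97, a sterol-regulated membrane protein, was lower with R788 (-0.68 ± 0.160), with 989 counts in SJ8 and 1540 in SJ7.

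Of 8 genes of the SREBP machinery, 3 were lower with each TCM (37.5%, against 16.9% and 17.3% of all genes), and with R788 in any medium 0 were called by DESeq2, by edgeR or at an unadjusted p under 0.05. The 3 encode partners at the promoter: Nfyb (-0.73 ± 0.138 with NB9464 TCM and -0.77 ± 0.139 with NBT3L TCM), Nfya (-0.41 ± 0.073 and -0.32 ± 0.073) and Sp1 (-0.53 ± 0.092 and -0.54 ± 0.093). With R788 alone the 3 had differences of -0.14 ± 0.136, 0.07 ± 0.072 and 0.05 ± 0.092. The other 5 genes of the list, Scap, Mbtps1, Mbtps2, Insig2 and Nfyc, were not called by DESeq2 against NS, and edgeR called Mbtps2 lower with NBT3L TCM.

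Of 13 tested genes of sterol uptake, storage and transport, 1 was higher and 9 lower with NB9464 TCM, 1 higher and 8 lower with NBT3L TCM, and 3 higher and 8 lower with R788. The shares lower were 69.2%, 61.5% and 61.5%, against 16.9%, 17.3% and 15.0% of all genes, and the shares higher were 7.69%, 7.69% and 23.1%, against 17.2%, 18.0% and 11.6%. Lipa, the lysosomal acid lipase, had 58867 and 58080 counts in NS and 25437 to 29716 with the TCMs (-1.14 ± 0.049 and -1.005 ± 0.049). Nceh1, a cholesteryl ester hydrolase, fell alike (-1.16 ± 0.061 and -0.89 ± 0.061). Ch25h, which makes 25-hydroxycholesterol, an oxysterol, had 355 and 335 counts in NS, 80.3 and 87.3 with NB9464 TCM and 370 and 426 with NBT3L TCM. R788 lowered Ch25h in each medium, to 68.2 and 20, 11.9 and 23.3, and 36.1 and 59.3 (-2.98 ± 0.461, -2.26 ± 0.513 and -3.06 ± 0.463). Cyp27a1, a sterol 27-hydroxylase, fell with both TCMs (-0.99 ± 0.188 and -1.71 ± 0.197) and rose with R788 alone from 634 and 636 to 1180 and 1060 (0.82 ± 0.182).

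Of 18 other fatty acid genes, 8 were higher and 2 lower with NB9464 TCM, 9 higher and 4 lower with NBT3L TCM, and 2 higher and 10 lower with R788. The shares higher were 44.4%, 50% and 11.1%, against 17.2%, 18.0% and 11.6% of all genes, and the shares lower were 11.1%, 22.2% and 55.6%, against 16.9%, 17.3% and 15.0%. Acsl1, which activates long-chain fatty acids, rose from 4077 and 3667 counts in NS to 12316 and 11653 with NB9464 TCM and 20191 and 19734 with NBT3L TCM (1.63 ± 0.075 and 2.37 ± 0.075). Hacd3, a dehydratase of elongation, rose with both (1.09 ± 0.097 and 0.996 ± 0.097), and Lpin1, a phosphatidate phosphatase, fell with both (-0.85 ± 0.258 and -1.21 ± 0.263). The Lpin1 call with NB9464 TCM was lost without SJ1 (-0.71, adjusted p = 0.0962) or SJ4 (-0.67, adjusted p = 0.102). Thrsp, an adipocyte and liver lipogenic factor, had 72.3 counts in SJ1, 7.59 in SJ2 and 0 to 30.6 in the other libraries. Thrsp reached 10 raw counts in 2 libraries, with 77 and 8 in NS and 4 and 0 with R788. Its fall with R788 (-4.49 ± 1.68, adjusted p = 0.0286) thus rests on SJ1, the NS library with most Adipoq. The fall could be tested under 14 of 18 alternatives and was lost under 4, among them counts divided by 2 (adjusted p = 0.0882).

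Of 14 other LXR targets and partners, 3 were higher and 6 lower with NB9464 TCM, 2 higher and 6 lower with NBT3L TCM, and 8 higher and 2 lower with R788. The shares lower were 42.9%, 42.9% and 14.3%, against 16.9%, 17.3% and 15.0% of all genes, and the shares higher were 21.4%, 14.3% and 57.1%, against 17.2%, 18.0% and 11.6%. Shares of 11.1%, 14.3% and 21.4% in these last 2 lists lay near their background. Lpl, the secreted lipoprotein lipase, had 148330 and 136460 counts in NS, 87650 and 87999 with NB9464 TCM and 56049 and 58765 with NBT3L TCM. R788 alone brought Lpl to 20814 and 21553 (-2.75 ± 0.052). Added to NB9464 TCM it gave 50608 and 52371 (-0.77 ± 0.051), and added to NBT3L TCM 38914 and 37717 (-0.58 ± 0.052). Apoe went the other way with R788 alone, from 5447 and 6055 to 18913 and 22260 (1.84 ± 0.096), and fell with the TCMs to 1933 and 2320 and to 1953 and 2074. Pltp, the phospholipid transfer protein, fell with both TCMs (-1.44 ± 0.085 and -1.85 ± 0.087), and Arl4c, a small GTPase, did so too (-2.22 ± 0.096 and -1.87 ± 0.096). Pltp and Arl4c had R788 differences of -0.25 ± 0.084 and 0.26 ± 0.094 without TCM, and both were not called without SJ1, SJ2 or SJ7 (without SJ2 -0.23, adjusted p = 0.141, and 0.25, adjusted p = 0.129). Arl4c was also not called by edgeR (0.25, adjusted p = 0.0541). Within the TCMs R788 raised Pltp by 0.845 in NBT3L TCM (DESeq2 adjusted p = 7.77e-20). The Pltp rise was 0.23 in NB9464 TCM (adjusted p = 0.0447), a call lost under 13 of 18 alternatives. For Arl4c, R788 gave a fall in NB9464 TCM (-0.628, adjusted p = 7.56e-09), and the NBT3L means were 3216 without and 3328 with R788.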

How the data were processed

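Poly(A)-selected RNA of 12 BMDM libraries was sequenced on a NovaSeq instrument with paired reads, per the labels. The methods instead name single reads in triplicate on a HiSeq instrument, which does not match these pairs of libraries. Raw counts per gene were deposited by the authors in 1 table for all libraries. The methods give the mm10 genome, STAR, Salmon and DESeq2. The submitters' processing notes name STAR 2.6.1d, Salmon 1.4.0, SAMtools 1.9, Picard 2.26 and MultiQC 1.11. The use of strand in counting was not given in the sources used here. The count table gives each library's depth, and dispersion covers counting error and the spread between libraries.

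Gene IDs were matched to symbols with GENCODE M21. Genes reaching 10 counts in 2 or more libraries were fitted with DESeq2 1.42.0 (R 4.3.3) as 6 group means, with median-of-ratios scaling, Wald tests and unshrunken fold changes. P-values were adjusted by Benjamini-Hochberg, with the default independent filtering of DESeq2 by mean count left on. The adjustment in each comparison thus covered those of the 16281 genes that this filter kept, and genes without an adjusted p counted as not called. The fit was tested on simulated data. Alternatives were the edgeR 4.0.16 quasi-likelihood test, TMM scaling, no filter, a mean of at least 50 counts, the compared libraries alone, counts divided by 2, a log2 fold change of at least 1, and leaving out each library. Counts were divided by 2 because even values made up 65.2 to 67.9% of counts from 1 to 40. The members, the wider lists and the rules were chosen with earlier results of these data known. Named members were those called in a comparison of groups with a mean of at least 100 normalized counts, up to 5 per role by size of change, and Srebf1, Srebf2, Insig1, Nr1h3, Abca1 and Abcg1 in any case. From each wider list up to 4 genes were named by size of change in the TCM and R788 comparisons, and 1 gene that this rule picks is not reported here. Promoters were to be printed for up to 4 members holding the sterol element. Intervals and SEs from 2 libraries per group rest on spread shared across genes. Figures were drawn with matplotlib 3.10.9.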

Additional observations from a re-analysis of the deposited data

Results flagged for a closer look

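Genes are given here whose R788 change within a TCM differed from the R788 change without TCM by a test of the difference itself (DESeq2 adjusted p under 0.05). Values are differences of log2 fold changes, TCM minus no TCM, over 2 libraries per group, and all of them share the NS and R788 libraries. The R788 library SJ8 had the fewest genes detected.

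For NB9464 TCM the difference was 0.87 for Abcg1 (adjusted p = 2.6e-06), 0.72 for Fads2 (adjusted p = 0.0243), 1.27 for Scd2 (adjusted p = 2.78e-36), 0.75 for Nsdhl (adjusted p = 0.0253), 0.52 for Pmvk (adjusted p = 0.0351) and 0.33 for Sqle (adjusted p = 0.0141). Without SJ8, Nsdhl was at 0.45 (adjusted p = 0.117), Fads2 at 0.54 (adjusted p = 0.128) and Pmvk at 0.46 (adjusted p = 0.109). Nsdhl was also not called without SJ2, SJ3 or SJ9 (highest adjusted p = 0.179) or by edgeR, Fads2 without SJ1, SJ2, SJ3, SJ4, SJ9 or SJ10 (highest 0.14), and Sqle without SJ1, SJ4, SJ9 or SJ10 (highest 0.0996). Pmvk was not called under 12 of 18 alternatives (highest adjusted p = 0.238, without SJ9). Among the wider lists it was -1.49 for Apoe, -0.89 for Arl4c, 1.98 for Lpl, 0.48 for Pltp, 0.89 for Acsl1, -0.93 for Cyp27a1 and 0.33 for Lipa. Cyp27a1 was not called without SJ3 (-0.79, adjusted p = 0.0783). A negative value for Apoe, Arl4c or Cyp27a1 means that R788 raised the gene without TCM and raised it less, or lowered it, within TCM.

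For NBT3L TCM the difference was 1.61 for Abcg1 (adjusted p = 2.04e-19), 1.55 for Fads2 (adjusted p = 3.6e-08), 1.39 for Scd1 (adjusted p = 0.0306), 1.88 for Scd2 (adjusted p = 9.76e-79), 0.71 for Nsdhl (adjusted p = 0.0415), 0.57 for Pmvk (adjusted p = 0.0196), 0.71 for Sqle (adjusted p = 4.42e-10), 0.46 for Insig1 (adjusted p = 0.00103), 0.37 for Srebf1 (adjusted p = 0.0318) and 0.26 for Srebf2 (adjusted p = 0.00999). Of 18 alternatives without a minimum fold, Scd1 was not called under 7 (0.77 without SJ1, adjusted p = 0.354), Nsdhl under 9 (0.41 without SJ8, adjusted p = 0.196), Pmvk under 5 (0.49 without SJ12, adjusted p = 0.176), Srebf1 under 6 (0.30 without SJ11, adjusted p = 0.202) and Srebf2 under 6 (0.22 without SJ6, adjusted p = 0.121). Among the wider lists it was -1.76 for Apoe, 2.17 for Lpl, 1.09 for Pltp, 0.54 for Acsl1, 0.52 for Acat2, 0.77 for Tmem97 and 0.30 for Lipa. Acat2 was not called under 7 of the 18 (0.46 without SJ6, adjusted p = 0.141), and Tmem97 was not called without SJ2 (0.66, adjusted p = 0.0819) or SJ12 (0.70, adjusted p = 0.0727).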

How the results depend on the processing

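Of 118 calls of members over the 8 tests, 76 were kept under all 18 alternatives without a minimum fold, and no called member changed direction. With a log2 fold change of at least 1, 2 members were called higher and 1 lower with NB9464 TCM. The numbers were 2 and 5 with NBT3L TCM, 0 and 4 with R788, and 0 and 0 with R788 in either TCM. They were 4 and 0 with NB9464 against NBT3L TCM. The difference of R788 changes was higher for 1 in NB9464 TCM and 4 in NBT3L TCM. Of all 16281 genes, the same minimum left 1860 called in either direction with NB9464 TCM, 1957 with NBT3L TCM and 806 with R788. It left 343 and 314 with R788 in NB9464 and NBT3L TCM, and 181 between the TCMs. For the differences of R788 changes it left 383 in NB9464 TCM and 288 in NBT3L TCM. Members higher with R788 numbered 1 by edgeR, TMM scaling, counts divided by 2 or the compared libraries alone. With the compared libraries alone, 2 were higher and 7 lower with R788 in NBT3L TCM, and by edgeR 6 had a higher R788 change in NBT3L TCM.

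Leaving out each library gave 5 to 8 higher and 10 to 12 lower with NB9464 TCM, 4 to 5 and 16 to 21 with NBT3L TCM, 1 to 3 and 20 to 24 with R788, 0 to 2 and 11 to 20 with R788 in NB9464 TCM, 1 to 2 and 3 to 6 with R788 in NBT3L TCM, and 6 to 11 and 1 to 2 between the TCMs. The R788 change differed upward for 2 to 9 members in NB9464 TCM and 5 to 11 in NBT3L TCM, and downward for 0 and for 0 to 1 (1 without SJ2). Calls over all genes also changed in number when a library was left out, so these ranges are not a trait of the members alone. Directions were followed only for differences called under at least 1 setting, so turns among the others were not counted. Of those followed, 5 that were not called with all libraries turned direction. Scd1 with NB9464 TCM was -0.20 without SJ2 and 0.86 without SJ1. Abca1 with R788 in NB9464 TCM was 0.11 without SJ3 and -0.32 without SJ4. Abca1 between the TCMs was 0.066 without SJ4 and -0.36 without SJ3. Dhcr7 turned in both tests of the R788 change. It was -0.17 without SJ8 and 0.57 without SJ7 for NB9464 TCM, and -0.009 and 0.73 for NBT3L TCM. The cause was not tested. TMM scaling moved the median of all genes by under 0.1 in each test. No paired analysis was possible because the labels give each library its own number.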
